A study of Mus musculus with 12 samples.

Results

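The response of wild-type (WT) mouse B cells to 48 hr of stimulation in culture was measured by RNA-seq. The members are 6 of the 12 libraries of the series, chosen by their labels. WT 0 hr (replicates 1, 2 and 3) is purified splenic B cells of WT genotype without stimulation. WT 48 hr (replicates 7, 8 and 9) is such cells cultured for 48 hr with 10 µg/ml lipopolysaccharide (LPS) and 25 ng/ml mouse interleukin 4 (IL-4). The other 6 libraries are Chd4 knockout (KO) cells at the same times. They entered the choice of genes tested, the scaling of the libraries, the estimate of the spread and 1 comparison at the end. The labels give no strain, age or sex of the mice, no unstimulated culture, no time between 0 and 48 hr, and neither stimulus alone, so LPS, IL-4, culture and time cannot be told apart. Whether replicates came from different animals or cultures is not given either. The p-values therefore reflect the variation among these libraries alone, and that variation could be technical.

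LPS, a component of bacterial outer membranes, activates B cells through Toll-like receptor 4 (TLR4) and NF-kB without a T cell, and drives them to divide and secrete antibody. IL-4 acts through its receptor, JAK kinases and the transcription factor STAT6, and together with LPS directs class switching of the immunoglobulin heavy chain to IgG1 and IgE. A resting splenic B cell is small and quiescent, and upon activation it enlarges, builds ribosomes, raises its metabolism and enters the cell cycle within days.

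Levels are given in CPM, estimated counts of a gene brought to one common library total, with library sizes scaled by edgeR's TMM method. Differences are log2 fold changes of 48 hr over 0 hr from edgeR's quasi-likelihood fit, with p-values adjusted over all genes tested by Benjamini-Hochberg. Levels are given for each library in the order of the replicates, or as mean ± SD (n = 3 libraries a group). A bare signed or unsigned value after a gene is its log2 fold change, and it is followed by its standard error (SE) and adjusted p where the result turns on it. Libraries held 38956484 to 41728085 estimated counts at 0 hr and 51220603 to 52971547 at 48 hr, and 13793 to 14024 genes reached 1 CPM at 0 hr against 11976 to 12073 at 48 hr. The biological coefficient of variation between replicates was 17.7% at 0 hr and 14.3% at 48 hr. On the first principal component of all 12 libraries, with 87% of the variance, the 0 hr libraries of WT lay at -79.4 to -91.8 and the 48 hr libraries at 85 to 88.4. Replicate 2 lay nearest to the 48 hr libraries among the WT 0 hr libraries, and it held the most RNA of macrophage genes: Csf1r, the receptor for macrophage colony-stimulating factor, was at 18.5, 51.7 and 21.3 CPM at 0 hr. With replicate 1, 2 or 3 of WT 0 hr left out, the count of changed genes was 13156, 13523 or 13047, against 14138 with all libraries. Every library expressed the B cell receptor component Cd79a (2605, 2671 and 2308 CPM at 0 hr, 893, 949.8 and 855 CPM at 48 hr), and the T cell receptor component Cd3e did not exceed 1.68 CPM in any WT library. Other marker genes were higher than Cd3e: at 0 hr the 15 tested T cell markers summed to 210.0 to 267 CPM. The 7 tested erythroid markers summed to 618 to 909 CPM at 0 hr.

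Of 19125 genes tested, 14138 changed at an adjusted p below 0.05 (73.9%), 6311 of them up (33.0%) and 7827 down (40.9%). At 2-fold or more, 10988 changed (57.5%), 4452 up (23.3%) and 6536 down (34.2%). In 15269 genes (79.8%) the 3 libraries at 0 hr and the 3 at 48 hr did not overlap. The median log2 fold change of all genes was -0.39, with quartiles of -1.70 and 0.95. The balance of rises and falls depended on the scaling: 44.6% of calls were rises with TMM, 27.6% with upper-quartile scaling and 23.2% with library totals alone, which moved the median of all genes by -0.67 and -0.89 on the log2 scale. Small rises can therefore turn into falls under another scaling. Counts of a list's members are read below against the percentages above and its median against that of all genes, which moves with it, and the counts with library totals alone stand beside them. Between under 1 CPM and 5 CPM or more, 75 genes moved up and 149 moved down.

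**Figure D1:**
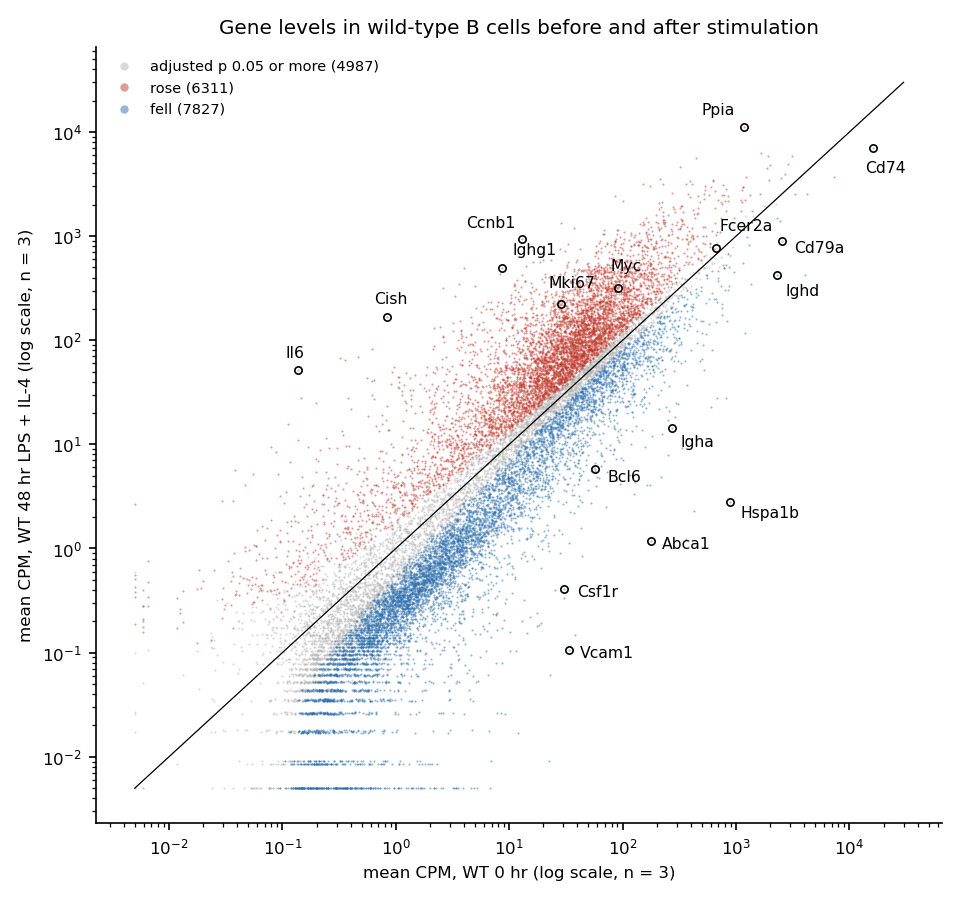
Mean CPM of each tested gene in WT 0 hr (x axis, log scale) and WT 48 hr (y axis, log scale), n = 3 libraries each, coloured by its edgeR call, with genes without counts drawn at the lower edge and the line marking equal levels. The 6311 genes that rose lie above the line and reach the highest levels at 48 hr, the 7827 that fell spread below it down to the lower edge, and Il6 and Cish (up) and Hspa1b and Abca1 (down) lie far from the line.

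The 10 largest rises among genes of 20 CPM or more in the higher group included genes of cytokine signalling, amino acid supply and lipid handling. Il6, the cytokine interleukin 6, rose from 0.0175, 0.237 and 0.158 CPM to 49.8, 57.3 and 47.2 CPM, and Cish, a STAT-induced inhibitor of cytokine signalling, from 0.930, 1.07 and 0.510 CPM to 169, 163 and 170.0 CPM. Both were low in each library at 0 hr and close between libraries at 48 hr (log2 fold changes 8.55, SE 0.42, adjusted p = 5.7e-10 and 7.65, SE 0.47, adjusted p = 4.8e-09). The others were Cth, which makes cysteine (7.69), the homing receptor Gpr15 (7.55), the cationic amino acid transporter Slc7a3 (7.47) and the guanylate-binding protein gene Gbp2b (7.10). They also included the transcriptional repressor Zbtb32 (6.96), the fatty acid carrier Fabp5 (6.95), the CD30 gene Tnfrsf8 (6.94) and the IL-4 responsive factor Nfil3 (6.58). The most CPM were gained by Ppia, a protein-folding isomerase (1164 ± 199 to 11120 ± 1431 CPM). Next came the glycolytic genes Gapdh (444 ± 113 to 5628 ± 384) and Ldha (322 ± 61.5 to 4597 ± 343), the chaperone Hspa8 and the nucleolar protein Npm1. The most CPM were lost by Cd74, the invariant chain of MHC class II (16218 ± 661 to 7073 ± 160.4), the nuclear RNA Malat1 (4075 ± 1216 to 427 ± 59.3), H2-Ab1, Cd79a and the antiproliferative gene Btg1. Cd74 alone gave 2.08% to 2.32% of all counts at 0 hr and 0.503% to 0.532% at 48 hr. Cytosolic ribosomal protein genes gave 1.94% to 2.57% at 0 hr and 5.09% to 6.28% at 48 hr.

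**Figure D2:**
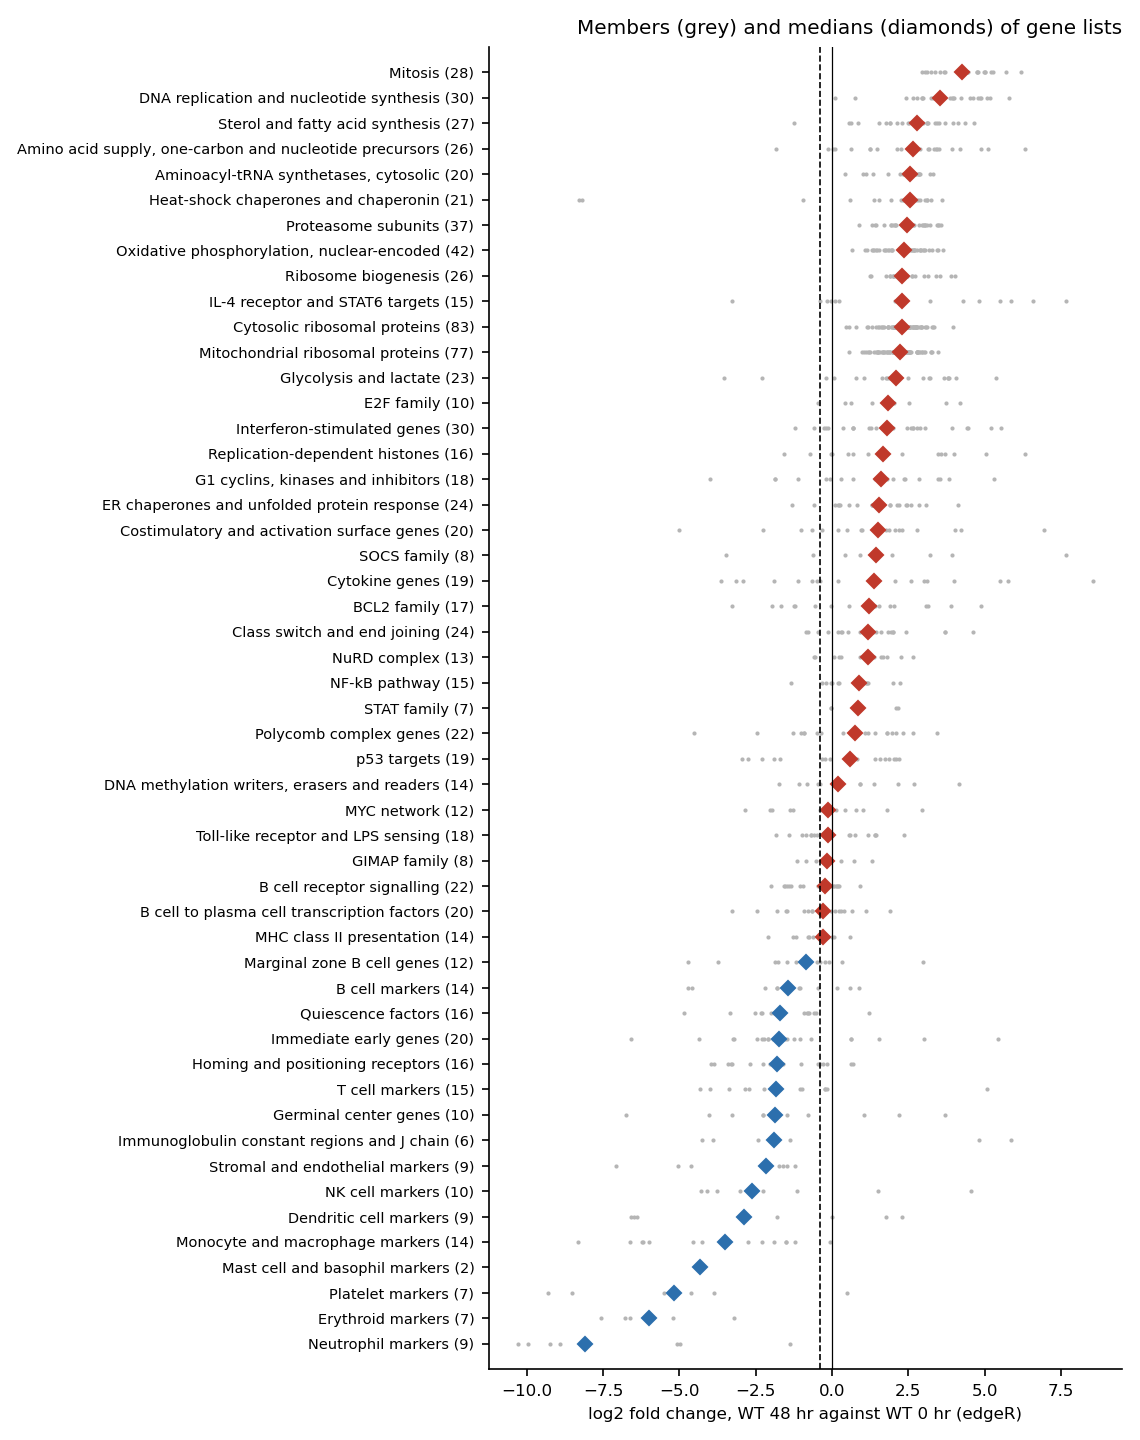
Log2 fold change of WT 48 hr over WT 0 hr for the tested members (grey) and the median (diamond) of each gene list, with the number of tested members in parentheses, a solid line at 0 and a dashed line at the median of all genes (-0.39). Diamonds are red above and blue below the dashed line. Mitosis and DNA replication genes lie at the top, and markers of neutrophils, erythroid cells and platelets at the bottom.

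Genes of cell division had the highest medians of the gene lists. All 28 mitosis genes rose, also with library totals alone, by a median of 4.24 and from 2.96 (Mki67) to 6.18 (Ccnb1), beside 33.0% of all genes that rose. Ccnb1, cyclin B1, was at 11.6, 16.6 and 10.8 CPM at 0 hr, against 927, 1002 and 899 CPM at 48 hr, a difference of 6.18, SE 0.22, adjusted p = 5.2e-11. Its kinase Cdk1 was at 7.81, 8.62 and 8.28 CPM and then 442, 452 and 389.8 CPM (5.70, SE 0.20, adjusted p = 4.8e-11). The mitotic kinase Plk1 was at 8.62, 9.11 and 8.24 CPM and then 233, 212 and 245 CPM (4.73, SE 0.12, adjusted p = 1.5e-11). Each of these 3 genes was far higher in every library at 48 hr than in any at 0 hr. The proliferation marker Mki67 rose less, from 28.5 ± 2.41 to 221 ± 29.1 CPM (2.96, SE 0.17, adjusted p = 2.2e-09). Of the 30 genes of DNA replication and nucleotide synthesis, 29 rose, with a median of 3.55 (28 rose and 1 fell with library totals alone). The helicase subunit Mcm2 stood at 47.3, 88.0 and 56.7 CPM at 0 hr, compared with 518, 474 and 512 CPM at 48 hr. The origin recognition gene Orc1 was at 2.44 ± 1.23 and 135 ± 3.93 CPM, and the ribonucleotide reductase subunit Rrm2 at 27.8 ± 5.33 and 757 ± 22.4 CPM. Replicate 2 held the most Mcm2 RNA at 0 hr, and all 3 were far below each library at 48 hr. The member that did not pass was Cdt1, the licensing factor that geminin holds back, at 65.0, 51.3 and 61.0 CPM and 62.5, 57.2 and 69.4 CPM (0.09, SE 0.13, adjusted p = 0.54), while the geminin gene Gmnn rose by 4.62.

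Promoters of these 2 lists were searched for the elements known to bind their regulators, in RefSeq sequences of GRCm38.p6 from 250 bases before to 50 after the start of the gene, on both strands. The cell cycle homology region (CHR, TTTGAA), through which the DREAM complex acts on mitotic genes, was present in 17 of the 23 mitosis promoters found (73.9%), against 12.9% of the 12441 promoters of tested genes and 18.1% of all 27025. The E2F element TTTNNCGC was present in 11 of 24 replication promoters (45.8%), against 7.69% of promoters of tested genes and 5.27% of all. Conversely, the CHR was in 3 of the 24 replication promoters (12.5%) and the E2F element in 2 of the 23 mitosis promoters (8.7%), beside 12.9% and 7.69% of promoters of tested genes. The 250 bases before the start are shown 5′ to 3′ on the gene's strand for Cdk1, chr10:69352913-69353162 on the minus strand, with both CHR matches in capitals. They are also shown for Mcm5, chr8:75109259-75109508 on the plus strand, with 2 overlapping E2F matches in capitals, 1 on each strand:
Cdk1: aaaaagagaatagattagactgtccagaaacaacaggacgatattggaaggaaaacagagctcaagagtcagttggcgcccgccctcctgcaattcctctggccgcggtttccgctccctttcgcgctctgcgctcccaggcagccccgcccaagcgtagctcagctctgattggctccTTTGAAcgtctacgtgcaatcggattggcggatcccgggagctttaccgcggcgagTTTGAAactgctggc
Mcm5: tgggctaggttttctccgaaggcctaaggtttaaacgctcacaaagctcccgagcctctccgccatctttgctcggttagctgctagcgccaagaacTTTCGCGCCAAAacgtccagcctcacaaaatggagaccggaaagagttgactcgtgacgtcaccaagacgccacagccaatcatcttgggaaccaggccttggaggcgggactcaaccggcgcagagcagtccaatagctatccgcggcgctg
The Cdk1 matches begin 71 and 15 bases before the start, and those of Mcm5 at 153 and 149. A match is a string of letters in these windows and was not tested for binding. Mcm5, a helicase subunit like Mcm2, rose from 64.7 ± 16.8 to 708 ± 38.3 CPM (3.45, SE 0.20, adjusted p = 3.2e-09).

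Among genes of the G1 phase, the D cyclins moved in different directions. Ccnd2, cyclin D2, rose from 96.9, 90.3 and 80.3 CPM to 1079.6, 987 and 1061 CPM, and Ccnd3 from 107 ± 4.00 to 426 ± 19.0 CPM. Ccnd1, a cyclin D little used in B cells, fell from 7.58 ± 1.64 to 0.470 ± 0.105 CPM. Ccne2, an E cyclin that starts S phase, rose by 5.30, the largest rise among the 18 G1 genes, of which 11 rose and 4 fell (10 and 7 with library totals alone). The kinase inhibitors Cdkn1b (-1.87) and Cdkn1c (-1.88) and the retinoblastoma relative Rbl2 (-1.13) were the other members that fell. Of 10 E2F and partner genes 9 rose and Tfdp2 fell (-0.48, a call lost without 0 hr replicate 2, -0.43, or 48 hr replicate 8, -0.32). Among the rises were E2f1, an activator of S phase genes, at 9.45 ± 1.35 and then 53.6 ± 2.15 CPM, E2f8 at 4.38 ± 0.808 and then 58.1 ± 6.75 CPM, and the partner Tfdp1 higher by 4.18. With library totals alone 6 of these 10 rose and 2 fell. Of 16 factors that hold lymphocytes in quiescence 14 fell and 1 rose, with a median of -1.71 (15 and 0 with library totals alone). Klf2, which also sets lymphocyte homing, was at 493, 379.9 and 496 CPM at 0 hr, against 141, 105 and 118 CPM at 48 hr (-1.91, SE 0.32, adjusted p = 0.00013). Foxo1, the forkhead factor inactivated by PI3 kinase signalling, was at 316, 305 and 315 CPM and 114, 90.1 and 113 CPM (-1.56, SE 0.13, adjusted p = 1.4e-07). Btg1 was at 1209.5, 1261 and 1102 CPM and 117, 122 and 111 CPM (-3.35, SE 0.16, adjusted p = 5.7e-10). The fall of Tsc22d3, a glucocorticoid-induced leucine zipper gene, was the largest of the list at -4.86. Slfn2, a schlafen gene needed for quiescence in T cells, was the member that rose, from 376, 403 and 348 CPM to 861, 903 and 844 CPM (1.21, SE 0.18, adjusted p = 3.2e-05), which did not pass with library totals alone (0.32).

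Myc, the driver of growth in activated lymphocytes, rose from 94.9, 89.4 and 90.9 CPM to 332, 305 and 325 CPM (1.80, SE 0.12, adjusted p = 9.6e-09). Nearly all listed genes of the protein-making machinery and of the proteasome, which degrades proteins, rose too. All 26 ribosome biogenesis genes rose, also with library totals alone (median 2.29), with the nucleolar proteins Ncl at 378, 372 and 335 CPM and then 3241, 3194 and 3062 CPM and Npm1 higher by 4.04. Of 83 cytosolic ribosomal protein genes 80 rose (2.28), as did all 77 mitochondrial ribosomal protein genes (2.23), all 20 cytosolic aminoacyl-tRNA synthetases (2.56) and all 37 proteasome subunits (2.44). The ribosomal protein list includes copies that share reads, so single members are uncertain. With library totals alone, 77, 72, 17 and 36 of these 4 lists' members rose and 0, 1, 1 and 0 fell. Within the MYC network, 4 of 12 genes rose and 6 fell (2 and 7 with library totals alone). The MYC antagonist Mxd3 rose by 2.94, while Mxd4 (-2.04) and Mycl (-2.85, under 5 CPM in both groups) fell.

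Energy and precursor genes rose on a similar scale. All 42 nuclear-encoded genes of oxidative phosphorylation rose (40 with library totals alone, none fell), with a median of 2.35 and up to 3.65 for Cycs, cytochrome c. Of 23 glycolysis genes 19 rose and 2 fell (median 2.10; 17 and 4 with library totals alone), with hexokinase 2 (Hk2) at 4.07 ± 0.179 and then 37.8 ± 6.92 CPM and the lactate exporter Slc16a3 higher by 5.38. The 2 that fell were Ldhb (-3.54), low in every library, and the pyruvate dehydrogenase kinase Pdk2 (-2.30). Amino acid and one-carbon genes gave 22 rises and 1 fall among 26 (median 2.66; 20 and 4 with library totals alone). Slc7a5, which imports leucine, was at 21.7, 28.0 and 23.8 CPM at 0 hr, compared with 383, 316 and 411 CPM at 48 hr (3.92, SE 0.24, adjusted p = 5.5e-09). Asns, which makes asparagine, rose from 2.70, 4.53 and 2.79 CPM to 259, 276 and 259 CPM (6.31, SE 0.36, adjusted p = 2.4e-09), the largest rise of the list, and the serine synthesis gene Psat1 rose by 5.11. Slc7a11, the cystine importer, fell by 1.84, while Cth, which makes cysteine from cystathionine, was among the 10 largest rises of all genes.

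Of 27 genes of sterol and fatty acid synthesis 26 rose and 1 fell (median 2.79; 23 and 1 with library totals alone), while the cholesterol exporter Abca1 fell. Hmgcs1, an early enzyme of the mevalonate pathway, was at 39.3, 41.0 and 37.9 CPM at 0 hr, against 453, 412 and 464 CPM at 48 hr (3.49, SE 0.12, adjusted p = 4.7e-11). Idi1, an isomerase later in the pathway, rose by 4.66. The exception was Scd1, the stearoyl-CoA desaturase, at 520.2, 677 and 542 CPM and then 255, 219.9 and 267 CPM (-1.23, SE 0.19, adjusted p = 6.8e-05). The related Scd2 rose from 58.0 ± 2.12 to 400.2 ± 61.9 CPM (2.79, SE 0.25, adjusted p = 2.8e-07). Abca1 was among the 10 largest falls of all genes, from 173, 178 and 183 CPM to 0.850, 1.89 and 0.793 CPM (-7.24, SE 0.37, adjusted p = 8.8e-10). The 3 libraries at 0 hr lay close together for Abca1, and all 3 at 48 hr were near 0. The sterol regulatory element TCACNCCAC was in 1 of the 19 promoters of the list (5.26%, against 1.09% of promoters of tested genes and 1.22% of all). It is that of Hmgcs1, chr13:119690101-119690350 on the plus strand, whose 250 bases before the start are shown with the element in capitals:
Hmgcs1: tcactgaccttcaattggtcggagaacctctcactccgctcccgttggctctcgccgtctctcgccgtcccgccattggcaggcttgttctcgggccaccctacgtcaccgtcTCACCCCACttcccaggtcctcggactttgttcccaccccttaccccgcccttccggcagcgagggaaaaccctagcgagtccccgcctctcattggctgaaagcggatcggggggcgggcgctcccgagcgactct

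Of 15 tested genes of the IL-4 receptor, STAT6 and its known targets 9 rose and 2 fell, with a median of 2.29 (9 and 6 with library totals alone). Il4ra, the receptor's alpha chain, was at 163, 224 and 190.2 CPM at 0 hr, compared with 779, 733 and 876 CPM at 48 hr (2.05, SE 0.30, adjusted p = 3.5e-05). Il4i1, a secreted amino acid oxidase, was at 111, 127 and 116 CPM and 578, 565 and 585 CPM (2.29, SE 0.12, adjusted p = 1e-09), and the AP-1 factor Batf rose from 19.6 ± 2.37 to 387 ± 29.5 CPM. Fcer2a, the low-affinity IgE receptor CD23 and a classical IL-4 target, was already at 651, 689.7 and 644 CPM at 0 hr and stood at 777, 738 and 785 CPM at 48 hr. The libraries did not overlap, but the test was not passed (0.21, SE 0.12, adjusted p = 0.14). The call for Fcer2a turned on the setting. It passed as a rise with DESeq2 (0.31, adjusted p = 0.023) and as a fall with upper-quartile scaling (-0.46, adjusted p = 0.0033) and library totals alone (-0.67, adjusted p = 0.00013). The list's falls were Bcl6 and Jak1 (-0.41), and that of Jak1 did not pass without 0 hr replicate 2 (-0.26), 48 hr replicate 7 (-0.38) or 48 hr replicate 8 (-0.36), or with DESeq2 (-0.32). Of 8 genes of the SOCS family, feedback inhibitors of cytokine receptors, 6 rose and 2 fell (4 and 3 with library totals alone). Socs1 was at 15.7, 14.3 and 16.9 CPM and then 157, 131 and 146 CPM, Socs2 at 5.03 ± 0.902 and 76.6 ± 3.28 CPM and Socs3 at 42.9 ± 3.78 and 166 ± 9.94 CPM. Socs5, which has been tied to restraint of IL-4 signalling, fell from 30.7, 31.5 and 26.6 CPM to 2.11, 3.24 and 2.66 CPM (-3.47, SE 0.22, adjusted p = 7.8e-09). Of the 7 STAT genes 5 rose and none fell, but 2 rose and 2 fell with library totals alone. Stat4 rose from 93.3 ± 15.4 to 419.9 ± 9.82 CPM and Stat5a from 32.4 ± 1.22 to 137 ± 12.0 CPM.

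**Figure D3:**
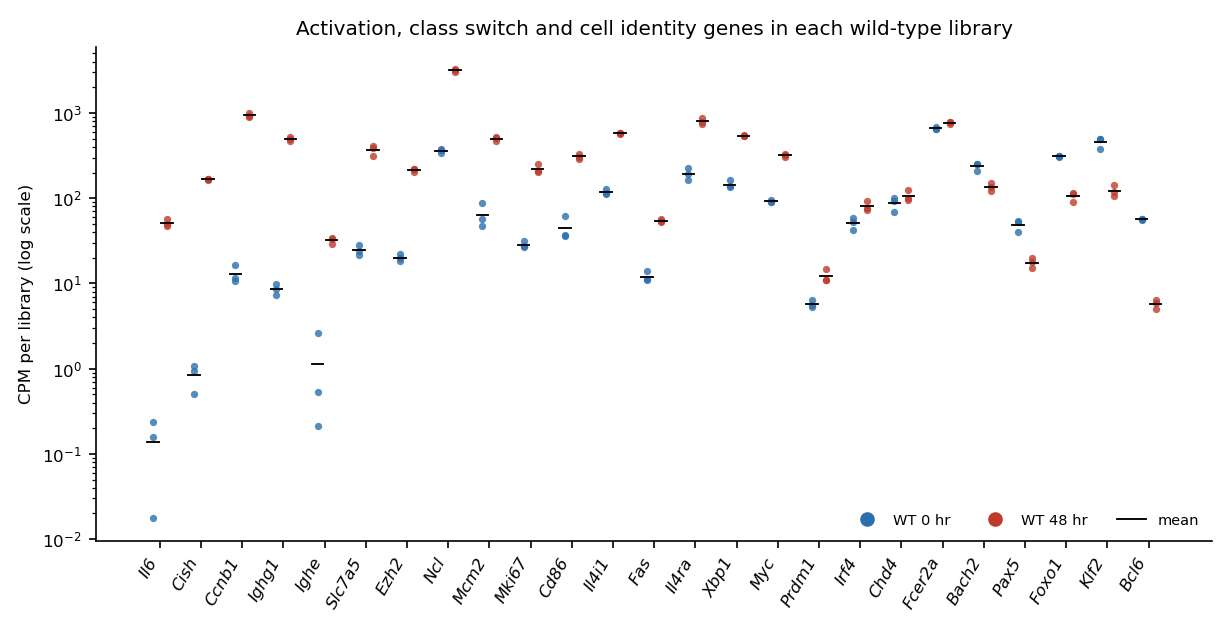
CPM of named genes in each WT library (log scale), with WT 0 hr replicates 1 to 3 in blue, WT 48 hr replicates 7 to 9 in red and a black bar at each mean, ordered by log2 fold change. Il6 and Cish are higher at 48 hr by log2 fold changes of 8.55 and 7.65, Chd4 overlaps between the groups, and Klf2 and Bcl6 lie lower at 48 hr.

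The genes of the IgG1 and IgE constant regions rose, and those of IgD and IgA fell. Ighg1, the IgG1 constant region (chromosome 12, 113325240 to 113330523 in mm10), was at 8.56, 9.76 and 7.38 CPM at 0 hr, against 493, 468 and 522 CPM at 48 hr (5.85, SE 0.31, adjusted p = 1.2e-09). Ighe, the IgE constant region, was at 2.65, 0.534 and 0.211 CPM and then 33.1, 34.2 and 29.4 CPM (4.82, SE 0.69, adjusted p = 2.9e-05). Ighe varied widely between replicates at 0 hr, highest in replicate 1, and its 3 libraries lay close together at 48 hr. The counts do not separate germline transcripts from switched ones. Ighd, which marks unswitched mature B cells, fell from 2308 ± 336 to 426 ± 6.95 CPM (-2.44, SE 0.23, adjusted p = 3.2e-07). Ighg2c was at 24.5 ± 3.90 and 9.37 ± 1.44 CPM (-1.38, SE 0.60, adjusted p = 0.052), and passed as a fall with limma-voom (adjusted p = 0.018), library totals alone (0.0037) and the 6 WT libraries alone (5.9e-06), among other settings. Igha, the IgA constant region, fell from 236, 296 and 293 CPM to 16.1, 14.7 and 12.2 CPM (-4.26, SE 0.49, adjusted p = 3.3e-06). Jchain, which joins secreted IgA and IgM, fell from 234, 314 and 211 CPM to 16.1, 19.6 and 15.4 CPM (-3.89, SE 0.31, adjusted p = 7.3e-08). Both are abundant in plasma cells, and in bulk RNA fewer cells of a type and less RNA per cell cannot be told apart. Of 24 genes of switching and end joining 17 rose and 3 fell, with 12 and 8 under library totals alone. Ung, which removes uracil from DNA, rose by 1.98 and the exonuclease Exo1 rose by 4.6, whereas the end-joining ligase Lig4 fell by 0.85.

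Several transcription factors of the B cell state fell, and those of the plasma cell state rose from low or moderate levels. Pax5, which keeps B cell identity, was at 54.3, 40.1 and 52.4 CPM at 0 hr, compared with 19.6, 15.2 and 17.7 CPM at 48 hr (-1.48, SE 0.17, adjusted p = 3.1e-06). Bach2 fell from 236 ± 24.1 to 137 ± 15.2 CPM (-0.79, SE 0.12, adjusted p = 6.8e-05) and Ebf1 fell by 1.80. Bcl6, the germinal center repressor, fell from 56.6, 56.8 and 56.2 CPM to 5.84, 5.02 and 6.47 CPM (-3.29, SE 0.31, adjusted p = 3.5e-07). The 3 libraries at 0 hr were nearly equal for Bcl6, and none overlapped with 48 hr. Prdm1, the gene of BLIMP-1 and a driver of plasma cell fate, was low in both groups, at 5.53, 5.30 and 6.31 CPM and 11.0, 11.0 and 14.9 CPM (1.11, SE 0.28, adjusted p = 0.0025), and did not pass with upper-quartile scaling (0.43) or library totals alone (0.22). Xbp1, the secretory pathway regulator, was at 137, 162 and 135 CPM and 545, 539.8 and 538 CPM (1.90, SE 0.12, adjusted p = 8e-09). Irf4, which rises with activation, was at 42.8, 58.9 and 52.1 CPM and 73.7, 77.2 and 91.6 CPM (0.66, SE 0.21, adjusted p = 0.013). This rise did not pass without 0 hr replicate 1 (0.55) or 48 hr replicate 9 (0.58), nor with upper-quartile scaling (-0.016) or library totals alone (-0.23). Over the 20 factors of the list 6 rose and 9 fell, with 1 and 17 under library totals alone, and the median was -0.30, beside -0.39 for all genes. ER chaperone and unfolded protein genes rose in 18 of 24 and fell in 2 (16 and 6 with library totals alone), from Trib3 (4.11) to the stress kinase Eif2ak3 (-1.31), with the chaperone Hspa5 at 628 ± 136 and then 3452 ± 47.0 CPM. Of 10 germinal center genes 3 rose and 6 fell (2 and 7 with library totals alone). The death receptor Fas rose (12.0 ± 1.67 to 54.4 ± 2.46 CPM), while Gcsam fell from 12.0, 13.1 and 9.24 CPM to 0.0257, 0.135 and 0.153 CPM (-6.74, SE 0.63, adjusted p = 3.5e-07) and Rgs13 fell by 4.03. Of 12 marginal zone genes 7 fell and 1 rose (10 and 1 with library totals alone). Cr2, the complement receptor CD21, fell from 528, 736 and 542 CPM to 23.8, 17.1 and 28.3 CPM (-4.71, SE 0.23, adjusted p = 4.8e-10) and Cd1d1, which presents lipids, fell by 3.75. Plxnd1 was the one that rose (2.97).

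On the LPS side, the receptor Tlr4 was at 23.0, 32.8 and 25.3 CPM at 0 hr, against 43.6, 48.0 and 45.9 CPM at 48 hr (0.76, SE 0.15, adjusted p = 0.00044). This rise did not pass with upper-quartile scaling (0.09) or library totals alone (-0.12). Of 18 Toll-like receptor and LPS sensing genes 8 rose and 7 fell, with 4 and 10 under library totals alone. The RNA-sensing Tlr7 rose from 28.8 ± 6.72 to 148 ± 9.48 CPM (2.36, SE 0.21, adjusted p = 2.4e-07) and the DNA-sensing Tlr9 fell from 2.97 ± 0.907 to 0.826 ± 0.0936 CPM (-1.84, SE 0.47, adjusted p = 0.0031). Of 15 NF-kB pathway genes 8 rose and 2 fell, but 4 rose and 7 fell with library totals alone. Among the subunit genes Nfkb1 rose, Rel fell, and Rela, Relb and Nfkb2 did not pass (-0.02, 0.01 and 0.23). The inhibitors and targets Nfkbia (1.00), Tnfaip3 (2.01) and Traf1 (2.22) rose, while Nfkbid fell (-1.35). With library totals alone the rise of Nfkbia did not pass (0.11), and Rela (-0.91), Relb (-0.87) and Nfkb2 (-0.66) passed as falls. The element of GGG, any 2 bases and TTTCC was in 4 of the 12 NF-kB list promoters (33.3%), against 1.7% of promoters of tested genes and 1.62% of all. Among 19 cytokine genes 10 rose and 7 fell (8 and 8 with library totals alone). Il10, an inhibitory cytokine, was at 0.369, 0.0988 and 0.0351 CPM and then 11.2, 9.13 and 7.98 CPM (5.78, SE 0.46, adjusted p = 7.1e-08). Ebi3, a subunit of IL-27 and IL-35, was at 9.74 ± 1.23 and 156 ± 8.44 CPM, Tnf at 9.27 ± 1.38 and 38.8 ± 2.88 CPM and the chemokine Ccl22 at 3.22 ± 1.11 and 147 ± 8.43 CPM. Ltb, a builder of lymphoid tissue, fell by 2.91 and Il12b, under 5 CPM in both groups, fell by 3.63.

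Interferon-stimulated genes rose in 24 of 30 and fell in 2 (median 1.79; 20 and 5 with library totals alone), but relatives on chromosome 19 differed in direction. Ifit1, an RNA-binding antiviral gene, was at 4.77, 8.08 and 4.76 CPM at 0 hr, compared with 222, 213 and 208 CPM at 48 hr (5.19, SE 0.22, adjusted p = 1.6e-10). Its relative Ifit3 was at 11.2, 15.2 and 14.1 CPM and then 6.49, 5.43 and 5.42 CPM (-1.22, SE 0.24, adjusted p = 0.00044). Every library of Ifit1 was higher at 48 hr and every library of Ifit3 was lower. Ifit3b, a near-identical copy of Ifit3 that may share its reads, fell as well (3.17 ± 1.07 to 0.420 ± 0.275 CPM). Gbp2 rose from 28.7 ± 4.05 to 1334 ± 15.3 CPM, Isg15 from 6.01 ± 0.386 to 129 ± 8.52 CPM and the RNA sensor Ifih1 from 5.80 ± 1.37 to 126 ± 2.51 CPM. Mx1 (-0.25) and Rsad2 (-0.13) did not pass and Irf1 fell (-0.60). The interferon-stimulated response element (ISRE: GAAA, any 2 bases and GAAA) was in 14 of 23 promoters of the list (60.9%), against 3.17% of promoters of tested genes and 3.49% of all. Both Ifit genes carry 2 of them in the 250 bases before the start, shown in capitals (read on the other strand). They are shown for Ifit1, chr19:34640639-34640888, and Ifit3, chr19:34583279-34583528, both on the plus strand:
Ifit1: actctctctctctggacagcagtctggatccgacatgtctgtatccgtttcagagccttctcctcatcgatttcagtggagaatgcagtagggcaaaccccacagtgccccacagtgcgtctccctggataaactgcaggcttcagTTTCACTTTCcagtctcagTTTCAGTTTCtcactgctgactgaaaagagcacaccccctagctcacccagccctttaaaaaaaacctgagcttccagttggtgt
Ifit3: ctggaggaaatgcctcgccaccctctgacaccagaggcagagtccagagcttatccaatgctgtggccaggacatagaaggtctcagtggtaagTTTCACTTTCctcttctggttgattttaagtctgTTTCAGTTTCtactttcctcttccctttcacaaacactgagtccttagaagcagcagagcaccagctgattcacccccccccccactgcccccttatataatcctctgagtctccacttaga

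Surface molecules of activation rose in 13 of 20 and fell in 3 (median 1.5; 11 and 7 with library totals alone). Cd86, a ligand of CD28 on T cells, was at 36.6, 61.3 and 36.4 CPM at 0 hr, against 292, 333 and 308 CPM at 48 hr (2.80, SE 0.22, adjusted p = 6.7e-08). Its relative Cd80 was at 2.15 ± 0.370 and 1.37 ± 0.279 CPM (-0.65, SE 0.39, adjusted p = 0.15). Il2ra rose by 4.24 and the transferrin receptor Tfrc, which imports iron, by 4.02. Icosl, the ligand of ICOS on T cells, fell from 251, 247 and 260.3 CPM to 7.96, 6.56 and 9.21 CPM (-5.00, SE 0.17, adjusted p = 4.8e-11), the largest fall of the list. Homing receptors fell in 10 of 16 and rose in 2 (median -1.81; 15 and 0 with library totals alone). S1pr1, by which lymphocytes leave tissue, was at 334, 435 and 332 CPM and then 36.7, 34.3 and 40.1 CPM (-3.31, SE 0.18, adjusted p = 1.3e-09). The chemokine receptor Ccr6 was at 148 ± 8.53 and 13.9 ± 0.864 CPM and Cxcr4 at 58.2 ± 3.86 and 4.02 ± 0.783 CPM. The follicle receptor Cxcr5, at 238 ± 34.3 and 211 ± 8.74 CPM, did not pass (-0.18, SE 0.12, adjusted p = 0.2), but passed as a fall with upper-quartile scaling (-0.85), library totals alone (-1.06) and a filter of 1 CPM in 3 libraries (-0.33).

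Markers of B cells fell in part, and single members of the B cell receptor and MHC class II parted. Of 14 B cell markers 10 fell and 2 rose, with 13 and 0 under library totals alone. Fcmr, the IgM Fc receptor, fell from 675 ± 74.9 to 28.0 ± 3.28 CPM (-4.59, SE 0.39, adjusted p = 1.4e-07). Cd79a fell (-1.49, SE 0.12, adjusted p = 5.6e-08), while Cd79b, its partner in the receptor, was at 1338, 1663 and 1213 CPM and 1544, 1692 and 1426 CPM (0.15, SE 0.15, adjusted p = 0.4). Ms4a1, the CD20 gene, rose from 1327 ± 359 to 2462 ± 150.3 CPM (0.89, SE 0.17, adjusted p = 0.00029), which did not pass with upper-quartile scaling (0.23) or library totals alone (0.01). Among 22 receptor signalling genes 10 fell, 1 rose and 11 did not pass (median -0.22, beside -0.39 for all genes; 21 fell and none rose with library totals alone). Among 14 MHC class II genes 7 fell and 1 rose (median -0.31; 14 and 0 with library totals alone). The modulators H2-Ob (-2.09) and H2-Oa (-1.27) fell most, H2-Ab1 fell by 0.74, and H2-Aa was at a log2 fold change of 0.05 and did not pass.

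Most immediate early genes and the inducible heat-shock genes were higher at 0 hr than at 48 hr. Fos was at 26.5, 15.5 and 23.5 CPM at 0 hr, compared with 1.06, 1.59 and 0.537 CPM at 48 hr (-4.36, SE 0.48, adjusted p = 2.1e-06). Jun was at 313, 257 and 319 CPM and 80.9, 72.3 and 80.2 CPM (-1.93, SE 0.19, adjusted p = 5.6e-07), and Dusp1, a phosphatase that ends MAP kinase signals, at 37.2 ± 4.61 and 6.75 ± 0.288 CPM. Of 20 immediate early genes 14 fell and 5 rose (median -1.74; 15 and 2 with library totals alone). Atf3 went the other way, from 0.983, 1.19 and 0.966 CPM to 46.6, 44.7 and 43.1 CPM (5.42, SE 0.46, adjusted p = 1.3e-07), as did Ier3 (3.02). Hspa1a and Hspa1b, near-identical genes of inducible HSP70 whose reads cannot be fully separated, were at 399, 291 and 395 CPM and 939, 686 and 1015 CPM at 0 hr and at 1.13, 1.76 and 0.819 CPM and 3.60, 2.11 and 2.71 CPM at 48 hr. Their log2 fold changes were -8.20, SE 0.33, adjusted p = 1.1e-10 and -8.29, SE 0.33, adjusted p = 9.9e-11, and the groups lay far apart in each. The co-chaperone Dnajb1 fell by 0.94. The other 18 chaperone and chaperonin genes of that list of 21 rose (17 rose and 3 fell with library totals alone). Examples were Hspa8 from 1654 ± 321 to 6285 ± 206 CPM, the mitochondrial Hspd1 (3.03) and the chaperonin subunit Cct2 (2.37). No library of cells handled alike without stimulation at 48 hr is among the samples, so the state of the 0 hr cells and the stimulus cannot be told apart here.

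Of the 17 genes of the BCL2 family, which decides survival or death of the cell, 10 rose and 6 fell, with 7 and 8 under library totals alone. Bcl2 fell from 194, 159.8 and 187 CPM to 60.5, 52.3 and 58.5 CPM (-1.66, SE 0.13, adjusted p = 6.5e-08). Bcl2l1, which encodes BCL-XL, rose from 9.04, 9.76 and 8.35 CPM to 75.7, 76.9 and 78.3 CPM (3.09, SE 0.12, adjusted p = 9.6e-11). Mcl1 fell by 0.57. The copies Bcl2a1b (39.5 ± 6.71 to 594 ± 86.4 CPM) and Bcl2a1d (4.87) rose and Bcl2a1a fell (-1.23), but these genes are near-identical and the split of reads among them is uncertain. The pro-apoptotic gene Bmf fell by 3.29. Of 19 p53 target genes 11 rose and 5 fell, with 6 and 11 under library totals alone. Mdm2, Bbc3 and Pmaip1 were among those that rose and Plk2 among those that fell. Cdkn1a, the p21 gene, did not pass (-0.08), but passed as a fall with library totals alone (-0.96).

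Among the chromatin genes, the Polycomb paralogs Ezh2 and Ezh1 moved in opposite directions. Ezh2, the Polycomb methyltransferase of dividing cells, was at 21.9, 19.6 and 18.3 CPM at 0 hr, against 223, 205 and 221 CPM at 48 hr (3.44, SE 0.18, adjusted p = 8.2e-10). Its paralog Ezh1 was at 81.1, 108 and 77.5 CPM and 34.4, 37.3 and 37.7 CPM (-1.28, SE 0.17, adjusted p = 1.1e-05). The Polycomb genes Cbx7 (154 ± 22.3 to 28.2 ± 3.72 CPM) and Phf1 (95.6 ± 14.7 to 4.15 ± 0.807 CPM) fell too. Of 22 Polycomb genes 14 rose and 7 fell, with 8 and 9 under library totals alone. Uhrf1, which guides maintenance of DNA methylation, rose from 22.6 ± 3.61 to 403 ± 29.6 CPM and Dnmt1 by 2.17. The demethylase gene Tet3 fell, as did Tet1 (-1.73, under 5 CPM in both groups). Chd4, the remodeller deleted in the knockout, was at 99.4, 68.1 and 92.8 CPM and 102, 96.1 and 123 CPM in the WT (0.30, SE 0.22, adjusted p = 0.21), and the groups overlapped. With library totals alone Chd4 passed as a fall (-0.59, adjusted p = 0.027). Other NuRD subunits gave 8 rises and 1 fall among the 13 genes of the complex tested, 6 and 5 with library totals alone, with Hdac2 (2.25) and Rbbp7 (2.65) among the rises. Of 16 replication-dependent histone genes, whose RNA mostly lacks the poly(A) tail that oligo-dT priming needs, 10 rose and 2 fell (8 and 4 with library totals alone).

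RNA of genes listed as markers of other cell types was present at 0 hr and mostly fell. Whether the RNA of these genes, falling or rising, came from such cells was not tested. None of the 14 macrophage markers rose and 13 fell. Csf1r fell from 30.5 ± 18.4 to 0.408 ± 0.117 CPM (-6.21, SE 0.71, adjusted p = 3.1e-06), and Vcam1, an adhesion molecule, from 21.8, 59.1 and 20.9 CPM to 0.0772, 0.216 and 0.0256 CPM (-8.31, SE 0.91, adjusted p = 2e-06). With each library left out in turn 12 or 13 of them fell. The 14 markers summed to 220.0 to 449 CPM at 0 hr, highest in replicate 2, and to 47.2 to 57.0 CPM at 48 hr. The 7 erythroid genes all fell, from 618 to 909 CPM in sum to 10.9 to 13.7 CPM. The globin gene Hba-a2, whose reads may be shared with a near-identical copy, was at 479, 489.7 and 321 CPM and then 1.57, 2.70 and 2.53 CPM. Of 9 neutrophil genes 8 fell, and Mpo, Elane, Camp and Retnlg had no count at 48 hr. Without the low-count filter the falls of Mpo (edgeR adjusted p = 0.081) and Elane (0.074) did not pass. That of Mpo did not pass with limma-voom either (adjusted p = 0.14). The granule gene Camp was at least 97.6-fold lower, with 3 counts over the group as the floor. The platelet tubulin gene Tubb1 had 3661 counts over the 3 libraries at 0 hr and 1 at 48 hr, a ratio of 2558 (95% exact interval 459 to 101080, counting error only). Of 15 T cell markers 11 fell and 1 rose, and they summed to 210.0 to 267 CPM at 0 hr, against 124 to 128 CPM at 48 hr. The one that rose was Thy1, from 0.369, 0.138 and 0.105 CPM to 6.64, 7.62 and 6.70 CPM (5.07, SE 0.65, adjusted p = 9.3e-06). Cd3e was at 1.28 ± 0.368 and 0.0778 ± 0.0671 CPM, a small part of the T cell marker sums at both times. Among 10 NK cell genes the granzyme genes Gzmb (4.54) and Gzma (1.51) rose and 7 fell, and the receptor Klrb1c fell by 3.77. The rise of Gzma did not pass without 0 hr replicate 2 (1.51) or replicate 3 (1.19), with upper-quartile scaling (0.84) or with library totals alone (0.63). The dendritic cell markers Flt3 (24.9 ± 5.30 to 85.4 ± 1.29 CPM) and Bst2 (18.8 ± 1.16 to 91.8 ± 5.24 CPM) rose, while Itgax, Clec9a and Cd209a each fell to near 0 at 48 hr. The 9 tested genes of that list summed to 77.8 to 103 CPM at 0 hr, against 186 to 191 CPM at 48 hr, nearly all from Flt3 and Bst2 at 48 hr. With library totals alone 14 macrophage, 7 erythroid and 9 neutrophil markers fell and none rose. In that setting 13 T cell markers fell and 1 rose, 8 NK cell markers fell and 1 rose, and 7 dendritic cell markers fell and 2 rose. The part of other cells in genes that fell was not tested, and among the 10 largest falls Tubb1, Ppbp, Vcam1, Slc40a1, Hba-a2, Trf and Csf1r are known from platelets, red cells or macrophages. The other 3 were Hspa1a, Hspa1b and Abca1. Xist, expressed from the inactive X, was at 259 ± 38.4 and 78.7 ± 4.41 CPM (-1.72, SE 0.11, adjusted p = 1e-08), and the Y-linked Ddx3y at 26.0 ± 2.45 and 21.4 ± 0.552 CPM (-0.28, SE 0.14, adjusted p = 0.093). Both were present in every WT library.

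**Figure D4:**
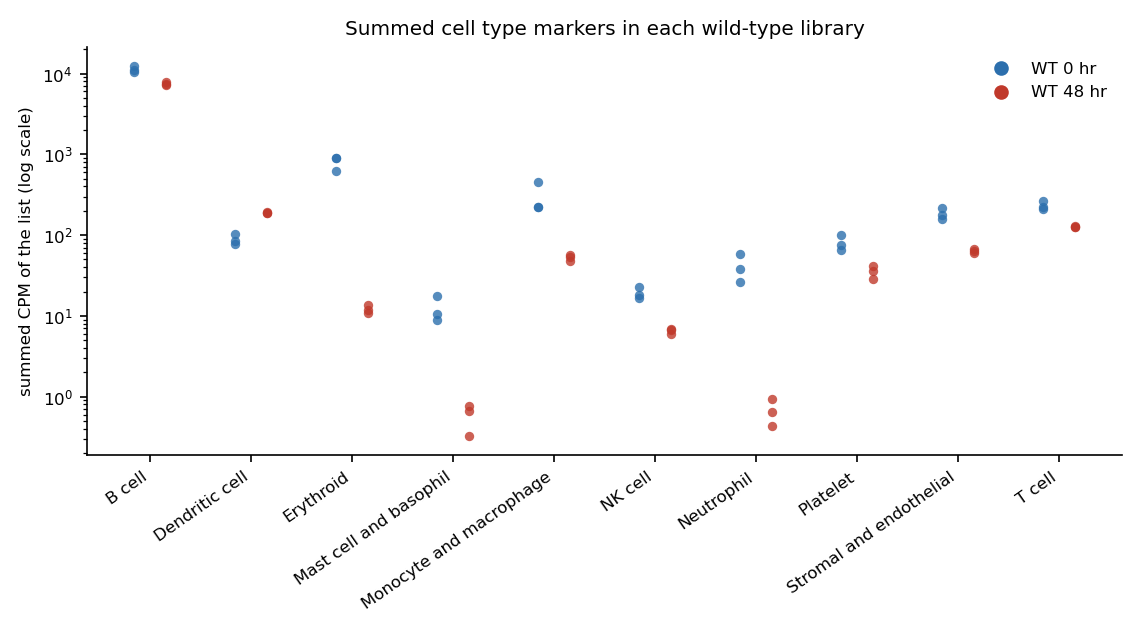
Summed CPM (log scale) of the tested markers of each cell type in each WT library, with WT 0 hr in blue and WT 48 hr in red. Markers of every type but dendritic cells lie lower at 48 hr without overlap. B cell markers are among them, at 10400 to 12600 CPM at 0 hr and 7310 to 7830 CPM at 48 hr. Dendritic cell markers are higher at 48 hr.

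Many genes changed in which of their transcripts held the reads. Of 8535 genes with at least 2 transcripts tested, 1904 changed in transcript usage (22.3%; edgeR's diffSpliceDGE with Simes' method). In 1398 (16.4%) a transcript's share of the gene's estimated counts moved by 10 points or more without overlap between the libraries. A gene-level F test in place of Simes' method called 3602. Adjusted p-values for usage below are for the gene, not for the transcript named. Shares are of counts, not per length, and rest on Salmon's division of reads among transcripts. Srsf7, a splicing factor, had 81.4, 74.4 and 82.6% of its counts in a transcript annotated as non-coding (variant 5, uc008dqr.2) at 0 hr and 13.4, 13.7 and 12.6% at 48 hr (adjusted p = 1.5e-36). Its coding transcript uc008dqs.2 went from 0% in each library to 37.1, 37.4 and 38.5%, while the gene as a whole rose from 348 ± 33.6 to 1299 ± 120.0 CPM. Cep57, a centrosome gene, had 50.8, 52.0 and 58.7% in a non-coding transcript and then 4.04, 6.07 and 9.12% (adjusted p = 5.4e-05). Hsp90aa1, the inducible HSP90, moved from 73.8, 76.6 and 80.6% to 7.79, 15.0 and 17.6% in transcript uc007pbq.2, with the rest in uc007pbr.1 (adjusted p = 7.5e-07). Bora, an activator of the mitotic kinase Aurora A, moved from 5.82, 4.75 and 2.55% to 86.0, 88.7 and 87.8% in uc007uuv.1 (adjusted p = 4.5e-11), and Ift80, Mapk6, Ssbp1 and Zfp277 were the others among the 8 largest shifts.

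Among the genes looked at for known isoforms, Ikzf1, which encodes Ikaros, had 65.8, 75.4 and 75.9% of its counts in variant 1 (uc007iak.2) at 0 hr and 31.3, 35.2 and 49.0% at 48 hr (adjusted p = 3e-11). The level of the gene did not pass the test (-0.02, SE 0.10, adjusted p = 0.86). Foxp1 shifted too (adjusted p = 6.8e-36), with uc009dbk.2 at 0% in each library at 0 hr and 13.9, 11.1 and 10.7% at 48 hr. This transcript is described as variant 1, as are uc009dbi.2 (mean 22.8% to 10.4%) and uc009dbj.2 (24.4% to 37.6%). In Ikzf1, uc007iaj.2 (mean 9.18% to 1.37%) and uc007ial.2 (0% to 17.5%) are both described as variant 2. Part of each shift thus lay between transcripts described as the same variant. Pkm, whose splice forms encode the pyruvate kinases M1 and M2, had 6.38, 5.55 and 6.32% of its counts in variant 1 (uc009pyh.2) at 0 hr and 1.21, 1.32 and 1.40% at 48 hr (adjusted p = 3.3e-08). Most counts lay in variant 2 (uc009pyi.2), with 91.7, 93.5 and 91.9% and then 98.6, 98.4 and 98.2%. The unadjusted p in diffSpliceDGE for its own relative change was 0.65. The transcript descriptions do not say which variant encodes M1 or M2. In Ptprc, the CD45 gene, transcript uc033fmd.1 held 81.6, 85.5 and 83.5% and then 94.4, 94.5 and 94.3% (adjusted p = 0.00074 for the gene, but an unadjusted p of 0.59 for this transcript's own relative change). Bcl2l1 (adjusted p = 0.32), Xbp1 (0.43) and Tcf3 (1.0) did not pass. In Bcl2l1 the share of uc008ngj.2 ranged from 0% to 29.1% at 0 hr and from 35.1% to 58.2% at 48 hr.

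**Figure D5:**
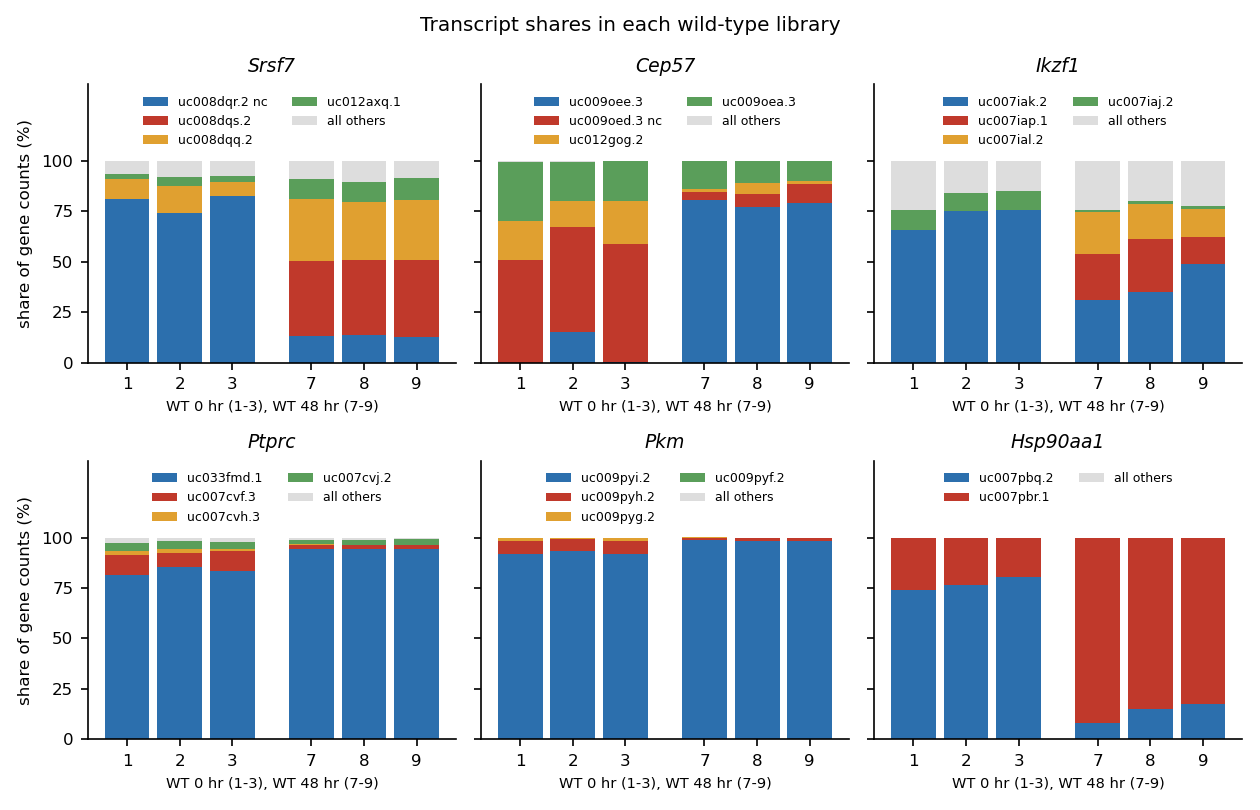
Share of each gene's estimated counts (y axis, percent) in its transcripts for WT 0 hr replicates 1 to 3 and WT 48 hr replicates 7 to 9, with up to 4 transcripts of largest change coloured, the rest in grey, and nc marking transcripts annotated as non-coding. In Srsf7 and Cep57 the main non-coding transcript holds 50.8% or more in each library at 0 hr and 13.7% or less at 48 hr, and Hsp90aa1 exchanges 1 transcript for another.

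The response was compared with that of KO cells, fitted in the same model. In KO cells 13517 genes changed between 0 and 48 hr, and 12191 changed in the same direction in both genotypes, which is 86.2% of the WT calls and 90.2% of the KO calls. Across genes the 2 sets of log2 fold changes had a Pearson r of 0.89, a description over genes that are not independent. The interaction passed for 22 genes (0.115%), 9 of them with the higher log2 fold change in WT (0.0471%), and for 1646 genes (8.61%) at an unadjusted p below 0.05. This count rests on single libraries: leaving out replicate 1 or 3 of WT 0 hr gave 5 or 6, and leaving out replicate 7, 8 or 9 of WT 48 hr gave 3, 4 or 4. Leaving out KO 0 hr replicate 4 or 6 gave 12 or 56, and KO 48 hr replicate 10, 11 or 12 gave 6, 7 or 90. DESeq2 gave 221. Among WT-responsive genes named above, Stat4 had log2 fold changes of 2.17 in WT and 0.35 in KO (difference 1.82, SE 0.17, adjusted p = 0.0013) and Gbp2b of 7.10 and 2.26 (difference 4.83, SE 0.53, adjusted p = 0.0027). Both passed with each of the 12 libraries left out. Gbp2 rose by 5.54 and 4.28 (difference 1.26, SE 0.19, adjusted p = 0.028), but did not pass in 7 of the 12. Ighg1 differed in the other direction, with 5.85 in WT and 8.28 in KO (difference -2.43, SE 0.41, adjusted p = 0.044). It rose from a KO level of 0.695 CPM at 0 hr against 8.57 CPM in WT, and the difference did not pass in 9 of the 12, with values of -2.90 to -2.07.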

How the data were processed

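Per the labels' protocols, 2 ng of total RNA per library was amplified from poly(A) tails with SMART-Seq v4 (12 cycles) and KAPA Hyper (8 cycles), which do not mark strand, and read as 50 bp pairs. The submitters' processing notes name bcl2fastq 2.20.0.422, Trimmomatic 0.36, Salmon 0.8.2, DESeq2 1.14.1 and mm10. The authors deposited estimated counts per UCSC transcript, as whole numbers. Their 63759 transcripts were summed to 32699 gene symbols after trimming spaces from 344 names. Symbols of mitochondrial transcripts and of several immunoglobulin constant regions were not analysed here. Reads of overlapping or antisense genes cannot be told apart.

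All 12 libraries (4 groups of 3) were fitted in edgeR 4.0.16 (R 4.3.3; TMM, filterByExpr, robust quasi-likelihood test, 8 residual degrees of freedom), which left 19125 genes, and transcript usage with diffSpliceDGE. Scripts were tested on simulated data. Calls are at an adjusted p below 0.05. Alternatives used DESeq2 1.42.0, limma-voom 3.58.1, other scalings and filters, the 6 WT libraries alone and each library left out. Replicate pairs differed by more than counting noise. The genes named are fixed standing genes, the 10 largest changes each way at 20 CPM or more, the 5 largest in CPM, and for each list the first 4 and the extreme members or those against the rest; some others were chosen after their values were seen, and some genes are not reported here. The members and lists were chosen with earlier results of these data known. Positions are from GENCODE M21.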

Additional observations from a re-analysis of the deposited data

Results flagged for a closer look

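For 4 genes named above the response of WT cells differed from that of KO cells by the interaction test of edgeR. The log2 fold change was larger in WT by 1.82 for Stat4, 4.83 for Gbp2b and 1.26 for Gbp2, and smaller in WT by a difference of -2.43 for Ighg1. Gbp2 and Gbp2b are similar genes that may share reads.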

How the results depend on the processing

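Scaling moved the balance of rises and falls, and no spike-in fixes total RNA per cell. With upper-quartile scaling 4180 genes rose, and with library totals alone 3603 rose and 11925 fell. At 2-fold or more, 2592 rose with upper-quartile scaling, and 2129 rose and 9988 fell with library totals alone. With 1 library left out, 13047 to 14345 genes were called in all, and the difference between WT and KO responses was called for 3 to 90 genes (221 with DESeq2). The gene-level F test called 3602 genes for transcript usage, and leaving out 1 WT library 1350 to 1756. No paired analysis was possible because the labels number the replicates 1 to 3 at 0 hr and 7 to 9 at 48 hr, so the groups share no number.

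Lists whose median lay just above that of all genes fell below it with genes of at least 1 CPM in 3 libraries, by differences of -0.14 for the GIMAP family, -0.21 for B cell receptor signalling, -0.12 for Toll-like receptor genes, -0.29 for B cell to plasma cell factors, -0.30 for MHC class II and -0.37 for the MYC network. With the 6 WT libraries alone the last 3 were at -0.023, -0.035 and -0.10. In each case the median of all genes moved as the set of genes or libraries changed.

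Genes with small log2 fold changes changed sign. Under upper-quartile scaling and then library totals alone the values were -0.52 and -0.74 for Cd79b, -0.59 and -0.80 for Cdt1, -0.38 and -0.59 for Chd4, -0.46 and -0.67 for Fcer2a, -0.61 and -0.83 for H2-Aa, -0.016 and -0.23 for Irf4, -0.45 and -0.66 for Nfkb2, and -0.66 and -0.87 for Relb. Tlr4 was at -0.12 with library totals alone. With the 1 CPM filter Cd79b was at -0.0057, Cdt1 at -0.062, H2-Aa at -0.098 and Relb at -0.14, and with the WT libraries alone Relb was at -0.017. With DESeq2 and with its scaling in edgeR, Cdkn1a (0.017 and 0.017), Ikzf1 (0.073 and 0.073) and Rela (0.071 and 0.071) were above 0 without passing, but with library totals alone all 3 passed as falls (-0.96, -0.91 and -0.91). With 1 library left out, values on both sides of 0 were found for Cdkn1a (-0.29 to 0.094), H2-Aa (-0.071 to 0.22), Ikzf1 (-0.073 to 0.057), Rela (-0.053 to 0.064), Relb (-0.058 to 0.097) and Rsad2 (-0.30 to 0.051). Irf4 and Tlr4 had passed as rises and did not pass with the sign changed, and the others had not passed. With library totals alone Cd79b, Cdt1, Chd4, Fcer2a, H2-Aa, Nfkb2 and Relb passed as falls, and with upper-quartile scaling all of these but Chd4. With DESeq2 and with its scaling in edgeR, Fcer2a (0.31) and Nfkb2 (0.32) passed as rises. Of other named genes that had not passed, Cd80, Cxcr5, Ddx3y, Ighg2c, Mx1 and Tcf3 passed as falls with upper-quartile scaling and with library totals alone, and Rsad2 with library totals alone (-1.02). None of the values below 0 under the 1 CPM filter, the WT libraries alone or with 1 library left out that are given for Cd79b, Cdt1, H2-Aa and Relb passed. The cause was not tested beyond these settings.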

Other observations

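Families of genes, some with members in the lists above, were counted by their symbols after the values had been seen. Of 55 genes named Eif 47 rose and 4 fell (40 and 10 with library totals alone). They include translation initiation factors but also others, such as the stress kinase Eif2ak3. Of 28 RNA polymerase subunit genes (Polr) 26 rose and 2 fell (20 and 3), and of 20 nucleoporin genes (Nup) 19 rose and none fell (15 and 1). In the other direction, none of 20 regulators of G-protein signalling (Rgs) rose and 14 fell, with a median of -1.76 (0 and 18 with library totals alone). Of 16 Kruppel-like factors 1 rose and 11 fell (0 and 14), and of 14 ABCA transporters, the family of Abca1, 1 rose and 11 fell (0 and 12). The 352 zinc finger genes named Zfp gave 123 rises and 92 falls, but 27 and 223 with library totals alone.

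Mylip and Abcg1 were looked at after the values of Abca1 had been seen, and both fell. Mylip, a ubiquitin ligase gene, had a mean of 106 ± 11.4 CPM at 0 hr, against 13.7 ± 1.51 CPM at 48 hr (SD, n = 3; difference of -2.96 in log2, SE 0.17, adjusted p = 2.6e-09 in edgeR). The exporter Abcg1 fell from 43.9, 38.3 and 38.6 CPM to 18.6, 21.1 and 17.9 CPM (-1.07, SE 0.12, adjusted p = 3.4e-06). Both groups were separate in each gene.

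The shift of Srsf7 and Cep57 away from non-coding transcripts was shared by other genes. Among 222 genes of 20 CPM or more in both groups with a non-coding and a coding transcript in the annotation, the share of counts in non-coding transcripts fell by 10 points or more without overlap in 61 and rose in 10. The median share was 13.8, 11.9 and 14.7% in the libraries at 0 hr and 6.14, 6.60 and 6.98% at 48 hr. Other splicing genes among them were Snrnp70, from 70.5, 61.1 and 71.6% to 6.8, 7.6 and 7.9%, and Srsf3, from 38.1, 33.5 and 43.2% to 3.5, 3.5 and 4.2%. Eif4a2, an RNA helicase gene, went the other way, from 3.2, 3.1 and 1.8% to 28.0, 21.6 and 26.3%. These shares depend on Salmon's division of reads and on which transcripts the annotation calls non-coding.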
